A study of Mus musculus with 4 samples.

Results

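Coagulation, fibrinolysis and thrombospondin genes were followed through the cell types of the mouse spleen after an injection of TNF, in wild-type animals and in animals labelled TRIF-KO. The set has 6 of the 32285 genes in the count tables, namely Thbs1, Plaur, Plau, F10, F13a1 and Fgl2. They were picked by name, and Thbs1, Plaur and Fgl2 are on the list because they had been seen to move with TNF in these libraries, so their TNF ratios are given below as a description and support nothing. The study profiled 4 groups by droplet single-cell RNA sequencing, with 1 library each: mice labelled TRIF-KO given TNF, mice labelled TRIF-KO given PBS, wild-type C57BL/6 mice given TNF and wild-type C57BL/6 mice given PBS. All animals were 10 weeks old, received 100 µl into a vein, either PBS or 9 µg of recombinant mouse TNF, and were killed 4 h later. Before capture, erythrocytes were lysed and magnetic beads removed dead cells, and the labels give neither the number of mice per library nor the allele. TRIF, the product of Ticam1, relays signals from Toll-like receptors, and the design text asks how its loss alters the response of spleen cells to TNF.

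Clotting ends when thrombin turns fibrinogen into fibrin. Factor X (F10) in its active form makes thrombin from prothrombin, and the A subunit of factor XIII (F13a1), which monocytes and megakaryocytes also make, cross-links the fibrin. Fibrinolysis reverses this: urokinase (Plau) activates plasminogen, and its receptor Plaur holds urokinase at the cell surface and also takes part in the adhesion and migration of myeloid cells. Thrombospondin 1 (Thbs1), best known from platelet granules, binds CD47 and CD36 and activates latent TGF-beta. Fgl2, fibrinogen-like protein 2, exists as a membrane prothrombinase and as a secreted immunoregulatory protein.

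The filtered libraries held 6662 (TRIF-KO TNF), 5403 (TRIF-KO PBS), 5033 (wild-type TNF) and 2452 (wild-type PBS) cells, with 22439304 to 59659149 UMIs in all and 4408 to 7198.5 per cell at the median. A UMI is a barcode that counts 1 captured molecule, and CPM below is a gene's UMIs in a cell class divided by all UMIs of that class, times 1000000. Barcodes over 10% mitochondrial UMIs, left out, were 11.6% in TRIF-KO TNF, 10.8% in TRIF-KO PBS, 22.4% in wild-type TNF and 6.26% in wild-type PBS. Library pairs had 3 to 15 cell barcodes in common. Ticam1 stood at 5.75 CPM in TRIF-KO TNF, 8.49 CPM in TRIF-KO PBS, 3.83 CPM in wild-type TNF and 6.86 CPM in wild-type PBS cells, so it was not lower in the libraries labelled TRIF-KO. With the allele unnamed, this level does not check the labels, and every direction between genotypes below is between libraries so labelled. No spread between mice can be had from 1 library per group, hence no p-value is given. The 95% intervals (exact Poisson for CPM, Clopper-Pearson for shares, exact conditional for ratios) and the limits from counts of 0 cover counting error alone. Of 25 clusters, 22 were given a cell class by marker genes, and 8 classes with at least 50 cells in every library were compared. In 2 of these, TNF and PBS cells lay in different clusters: neutrophil-like TNF cells in cluster 23 (led by Ngp and Camp) and PBS cells in cluster 13 (led by Csf3r and Cxcr2), monocyte-like TNF cells in cluster 24 and PBS cells in cluster 17. Treatment and these cell states cannot be told apart in those classes. The log2 ratio of TNF over PBS of the median counted gene was -0.44 in TRIF-KO and -0.38 in wild-type neutrophil-like cells, -0.02 and -0.20 in monocyte-like, -0.10 and -0.16 in NK-like, and -0.01 and -0.15 in B-like cells. The members were kept out of the clustering, though Fgl2 is among the leading genes of cluster 13, F13a1 of cluster 17 and F10 of cluster 24.

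Each member had its own place among the classes, shown in the plot of levels by cell class. Thbs1 lay in neutrophil-like, monocyte-like and platelet-like cells, and in progenitor-like cells of TRIF-KO TNF, where 1 cell gave 26 of 48 UMIs. The neutrophil-like class held 93.8% of all Thbs1 UMIs of the TRIF-KO TNF library, 5.21% in TRIF-KO PBS, 92.2% in wild-type TNF and 36.7% in wild-type PBS. F10 and F13a1 were mainly monocyte genes: 72.5% to 94% of the F10 UMIs of a library and 52.4% to 96.1% of its F13a1 UMIs came from monocyte-like cells. Progenitor-like cells held 43.3% of the F13a1 and 11.7% of the F10 UMIs of TRIF-KO TNF. Fgl2 was carried by neutrophil-like cells in the PBS libraries, with 59.3% of its UMIs in TRIF-KO PBS and 75.5% in wild-type PBS. Monocyte-like cells held 11.4% and 10.9% there, and NK-like and conventional dendritic-like cells carried it as well. Lymphocytes also carried part of Fgl2, with 13.2% of its UMIs in TRIF-KO TNF and 14.7% in wild-type TNF from NK-like cells, and 3.77% and 12.8% from unnamed cluster 3. Unnamed cluster 9, led by Ccl5 and Il2rb, gave 6.92% and 11.4%. Plaur had a large part in B-like cells, which gave 41.7% of its UMIs in TRIF-KO TNF, 55.8% in TRIF-KO PBS, 54.0% in wild-type TNF and 35.9% in wild-type PBS. B-like cells were also 39.6%, 48.0%, 48.5% and 41.8% of kept cells in the same order. Plaur CPM was higher in monocyte-like and neutrophil-like than in B-like cells of every library. Plau was close to undetected in every class.

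**Figure D1:**
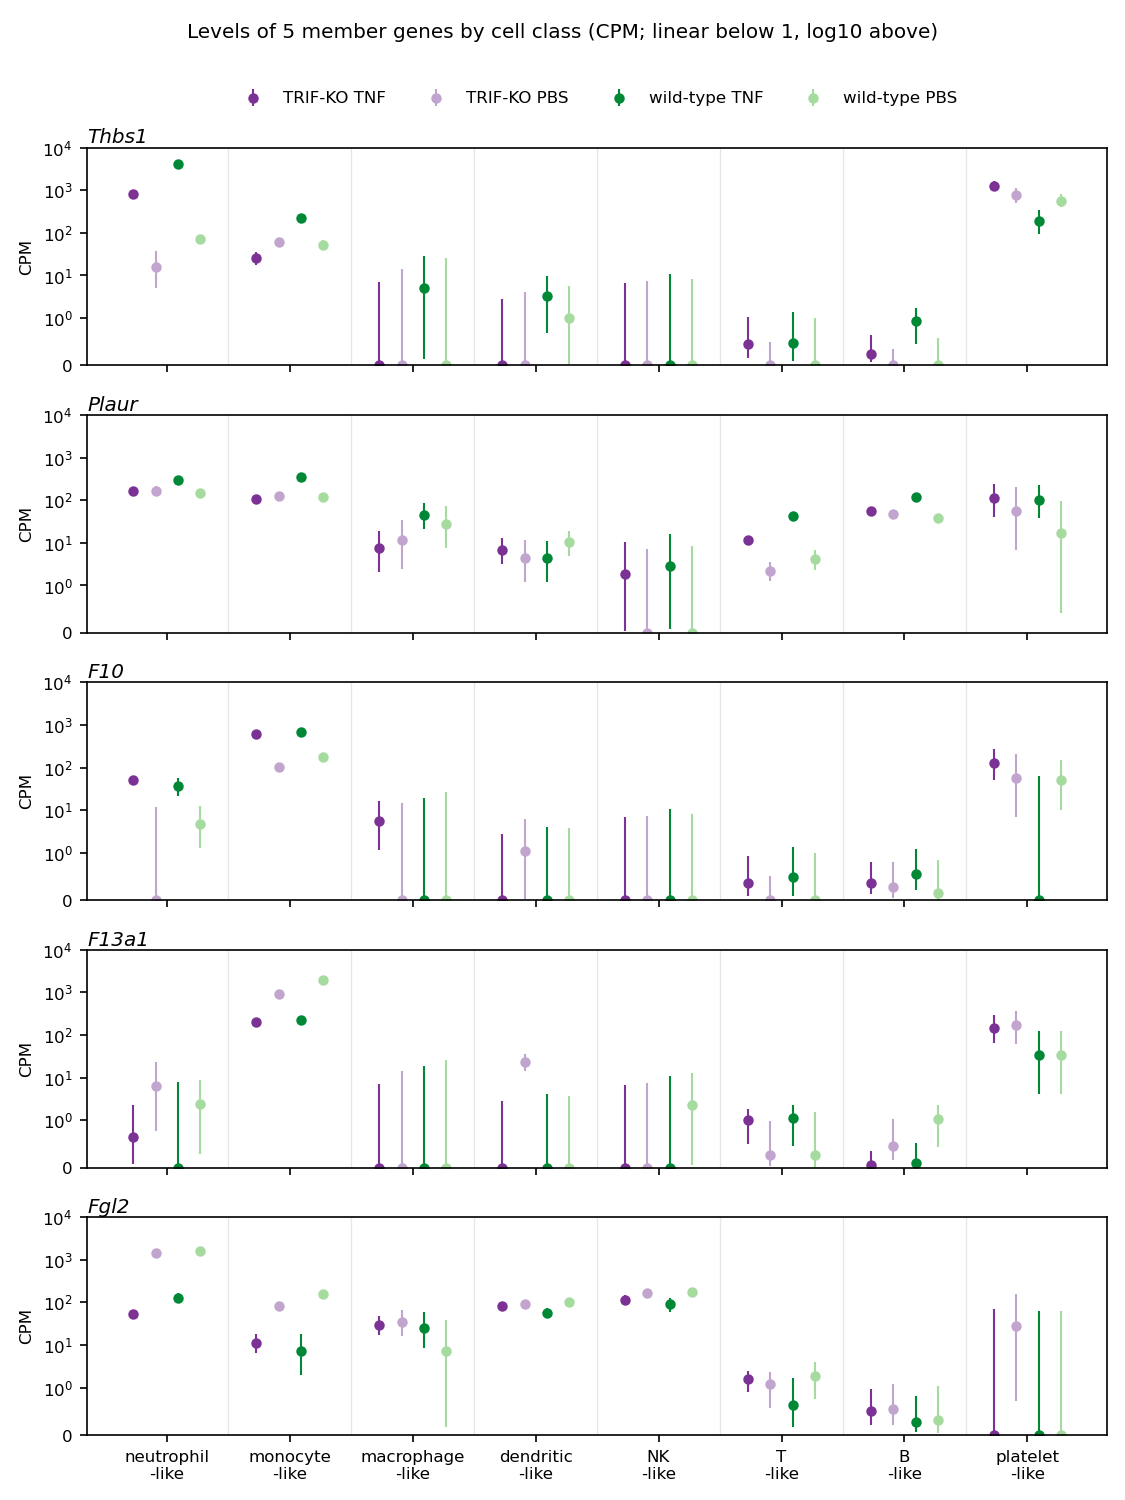
CPM of 5 member genes (1 panel each) in 8 cell classes, with 1 point per library (TRIF-KO TNF, TRIF-KO PBS, wild-type TNF, wild-type PBS from left to right) and bars for exact Poisson 95% intervals, on an axis that is linear below 1 CPM and log10 above. In neutrophil-like cells Thbs1 is higher and Fgl2 lower in the TNF than in the PBS library of each genotype, and F10 and F13a1 are highest in monocyte-like cells.

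All 6 genes are protein-coding in the GENCODE M21 annotation of mouse build GRCm38, matched by gene ID. Thbs1 (ENSMUSG00000040152) lies at chr2:118111876-118127133 on the plus strand, Plaur (ENSMUSG00000046223) at chr7:24462484-24475968 plus, Plau (ENSMUSG00000021822) at chr14:20836660-20843385 plus, F10 (ENSMUSG00000031444) at chr8:13037308-13056676 plus, F13a1 (ENSMUSG00000039109) at chr13:36867178-37050244 minus and Fgl2 (ENSMUSG00000039899) at chr5:21372642-21378374 plus. RefSeq promoters (GRCm38.p6, 250 bases before to 50 after a start) were at hand for 4 members, Plaur, F10, F13a1 and Fgl2. Plaur and Fgl2 are printed because they moved in opposite directions with TNF in myeloid cells of wild-type mice and because both windows hold a match to the AP-1 motif TGANTCA. Capitals mark every match to a searched motif: AP-1, and the GC box GGGCGG on either strand, where overlapping matches merge into 1 run.
Plaur promoter, chr7:24462233-24462532, plus strand: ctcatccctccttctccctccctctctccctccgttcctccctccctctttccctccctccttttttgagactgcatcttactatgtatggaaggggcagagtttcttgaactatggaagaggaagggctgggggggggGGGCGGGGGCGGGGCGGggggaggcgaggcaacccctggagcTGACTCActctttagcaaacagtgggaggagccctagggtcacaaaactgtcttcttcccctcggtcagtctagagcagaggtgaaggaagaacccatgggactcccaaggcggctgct
Fgl2 promoter, chr5:21372423-21372722, plus strand: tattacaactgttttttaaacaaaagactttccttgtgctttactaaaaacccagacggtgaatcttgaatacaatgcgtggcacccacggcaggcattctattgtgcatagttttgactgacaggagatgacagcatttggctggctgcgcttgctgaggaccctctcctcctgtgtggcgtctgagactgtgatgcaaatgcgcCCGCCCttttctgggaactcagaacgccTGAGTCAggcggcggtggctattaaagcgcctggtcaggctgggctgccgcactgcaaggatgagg

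The AP-1 match starts 69 bases before the RefSeq start in Plaur and 16 bases before it in Fgl2, and 7.81% of the 32851 promoters in the table hold one. Plaur has 3 GC boxes and Fgl2 has 1, a motif found in 35.7% of all promoters. The CRE TGACGTCA (1.79% of promoters), the NF-kB motif (8.46%), the C/EBP motif TTGCNNCAA (2.08%) and the SRF CArG box (1.63%), searched on both strands, had no match in these windows. None of the 6 motifs was matched in the F10 window or in the 2 F13a1 windows. A match is a run of letters and says nothing of a factor at work.

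Thbs1 was nearly absent from neutrophil-like cells after PBS and abundant after TNF. It had 2553 UMIs in 359 TRIF-KO TNF cells, 5 UMIs in 103 TRIF-KO PBS cells, 1913 UMIs in 82 wild-type TNF cells and 58 UMIs in 167 wild-type PBS cells. These are 821 CPM (789.5 to 854), 15.9 CPM (5.16 to 37.1), 4099 CPM (3918 to 4287) and 70.3 CPM (53.4 to 90.9) in that order of libraries. Both TNF libraries were far above both PBS libraries, and wild-type was above TRIF-KO under either treatment. TNF over PBS came to 51.6-fold (log2 5.69, 4.47 to 7.31) in TRIF-KO and 58.3-fold (log2 5.87, 5.49 to 6.27) in wild-type cells, and the difference of these log2 responses was -0.30 (-1.56 to 0.96). Among the genes counted in neutrophil-like cells, these were the 5th highest TNF ratio of 2965 in TRIF-KO and the 10th highest of 2984 in wild-type. TRIF-KO over wild-type was 0.200-fold after TNF (log2 -2.32, -2.41 to -2.23), the 8th lowest of 2969 genes, and 0.226-fold after PBS (log2 -2.14, -3.82 to -0.84), where the TRIF-KO side rests on 5 UMIs. Thbs1 was thus lower in the library labelled TRIF-KO at both treatments. Its place among the genes after TNF is a description, since Thbs1 was chosen for moving with TNF in the same libraries.

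Thbs1 was found in a larger share of neutrophil-like cells after TNF than after PBS. It was seen in 57.1% of TRIF-KO TNF, 4.85% of TRIF-KO PBS, 80.5% of wild-type TNF and 14.4% of wild-type PBS neutrophil-like cells. Cells differed in depth, with medians of 7594, 2545, 4950 and 4363 UMIs in the same order, and thinning every cell to 2000 UMIs, which left out 8, 17, 3 and 0 shallower cells, gave 44.2%, 3.49%, 77.2% and 8.98%. In B-like cells, which lack Thbs1, at most 0.369% had a UMI in any library at medians of 3688 to 5676 UMIs. Cells with 20 or more Thbs1 UMIs numbered 41 of 359 in TRIF-KO TNF and 43 of 82 in wild-type TNF, against 0 in both PBS libraries. The 9 platelet markers summed to 16.1 CPM in TRIF-KO TNF, 102 CPM in TRIF-KO PBS, 2.14 CPM in wild-type TNF and 26.7 CPM in wild-type PBS neutrophil-like cells, with 8, 5, 1 and 5 of the 9 detected. Their part in the Thbs1 values was not tested.

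**Figure D2:**
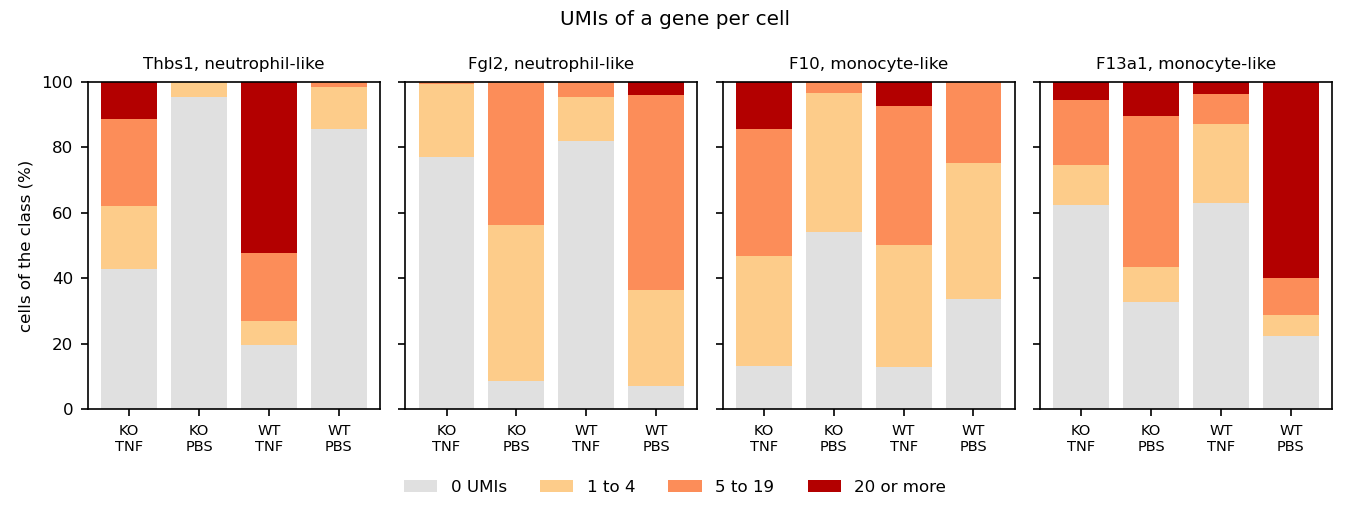
Share of cells (%) by the number of UMIs of a gene in the cell, for Thbs1 and Fgl2 in neutrophil-like and F10 and F13a1 in monocyte-like cells; KO is TRIF-KO and WT wild-type. Thbs1 reached 20 or more UMIs in 43 of 82 wild-type TNF cells, and Fgl2 was at 0 in 276 of 359 TRIF-KO TNF and 67 of 82 wild-type TNF cells.

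Neutrophil-like cells of the TNF libraries carried more RNA of granule proteins, which neutrophils make while they mature in the marrow. The sum of Ngp, Camp and Ltf per cell was under 1000 CPM in 45.7% of TRIF-KO TNF, 96.1% of TRIF-KO PBS, 39.0% of wild-type TNF and 96.4% of wild-type PBS cells, and 33, 1, 1 and 1 cells lay within a factor of 2 of that value. Cells under it, chosen as the range where all libraries have cells after the values were seen, numbered 164, 99, 32 and 161. Of these, 113, 93, 26 and 147 had no UMI of these granule genes, so granule RNA was unequal between libraries within the range. In all cells under 1000 CPM Thbs1 stood at 229 CPM (198 to 262) in TRIF-KO TNF, 15.8 CPM (4.30 to 40.4) in TRIF-KO PBS, 1912 CPM (1679 to 2167) in wild-type TNF and 74.3 CPM (55.8 to 97.0) in wild-type PBS. This gave 14.5-fold for TNF over PBS in TRIF-KO and 25.7-fold in wild-type, smaller than over all neutrophil-like cells. TRIF-KO over wild-type after TNF was 0.120-fold in this range (log2 -3.06, -3.34 to -2.79) and 0.216-fold (log2 -2.21, -2.30 to -2.12) in cells at 1000 CPM or more. The lower Thbs1 of TRIF-KO TNF cells was therefore present in granule-low and in granule-high cells.

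**Figure D3:**
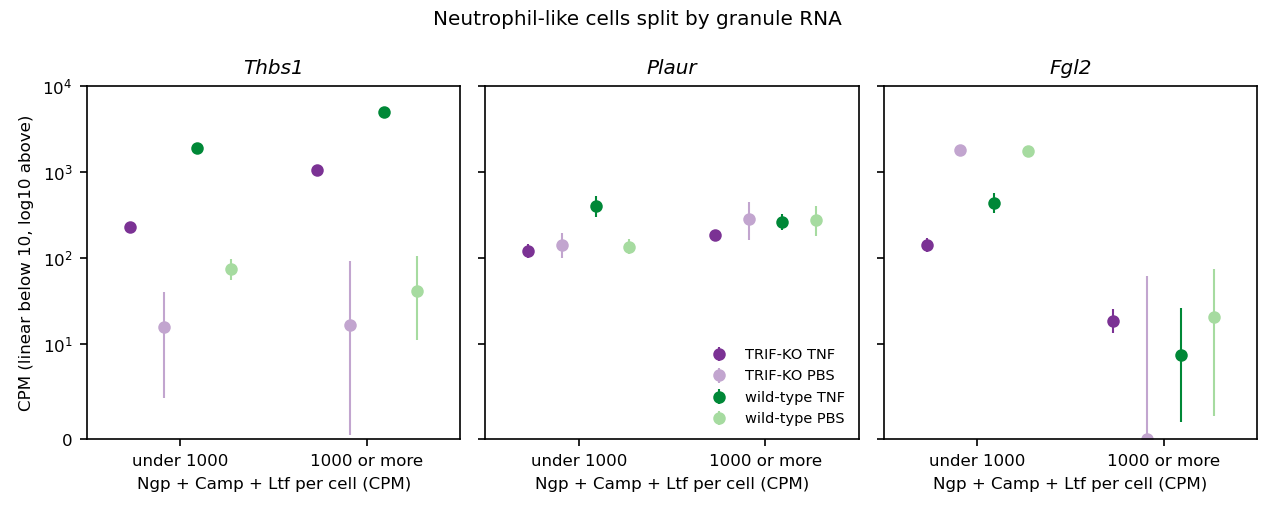
CPM of Thbs1, Plaur and Fgl2 in neutrophil-like cells whose summed Ngp, Camp and Ltf is under 1000 CPM or at 1000 CPM or more, by library, with exact Poisson 95% intervals (axis linear below 10 CPM, log10 above). Fgl2 is high in granule-low cells and at 20.4 CPM or less in granule-high cells of every library, and Thbs1 after TNF is lower in TRIF-KO than in wild-type in both ranges.

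Thbs1 was sparser in monocyte-like cells and its level there hung on single cells. It had 36 UMIs in 90 TRIF-KO TNF cells, 64 in 113 TRIF-KO PBS cells, 124 in 54 wild-type TNF cells and 62 in 80 wild-type PBS cells, that is 25.5 CPM, 59.7 CPM, 221 CPM and 52.6 CPM. One cell gave 24, 53, 45 and 8 of these UMIs. The one in TRIF-KO PBS had 57548 UMIs in all, with 38 UMIs of the platelet gene Pf4, and the top cells of the other libraries had 0 platelet-marker UMIs. The ratio of TNF to PBS was 0.428-fold in TRIF-KO (log2 -1.23, -1.86 to -0.61) and 4.21-fold in wild-type (log2 2.07, 1.62 to 2.54). Without the top cell of each library the TRIF-KO value was -0.32 on the log2 scale, which is under 2-fold. TRIF-KO over wild-type after TNF was 0.115-fold (log2 -3.12, -3.69 to -2.57), with 12 TRIF-KO and 79 wild-type UMIs left outside the top cells. Of the 36 TRIF-KO TNF UMIs, 7 came from the 87 cells in cluster 24 and the others from the 3 cells in cluster 17, the cluster of the PBS cells. Within cluster 24 the ratio was 0.0239-fold (log2 -5.39, -6.73 to -4.30), on 7 TRIF-KO and 124 wild-type UMIs. The 11 to 17 platelet-like cells of a library had 1267 CPM in TRIF-KO TNF, 772 CPM in TRIF-KO PBS, 188 CPM in wild-type TNF and 571 CPM in wild-type PBS, on 68, 27, 11 and 34 UMIs, too few cells to be compared.

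Plaur, the urokinase receptor, was higher after TNF in wild-type cells of several lineages and close to its PBS level in TRIF-KO myeloid and B-like cells. In monocyte-like cells it had 105 CPM (88.7 to 123) in TRIF-KO TNF, 125 CPM (105 to 148) in TRIF-KO PBS, 348 CPM (301 to 400.3) in wild-type TNF and 122 CPM (103 to 144) in wild-type PBS. In B-like cells the values were 55.1 CPM (51.5 to 58.8), 47.6 CPM (43.6 to 51.9), 121 CPM (115 to 128) and 38.9 CPM (34.2 to 44.0), on 885, 513, 1297 and 252 UMIs. Wild-type TNF stood apart from the other 3 libraries in both classes. TNF over PBS was 0.840-fold in TRIF-KO monocyte-like cells (log2 -0.25, -0.60 to 0.10) and 2.85-fold in wild-type ones (log2 1.51, 1.19 to 1.83), a difference of -1.76 (-2.22 to -1.30). B-like cells had 1.16-fold in TRIF-KO (log2 0.21, 0.05 to 0.37) and 3.12-fold in wild-type (log2 1.64, 1.45 to 1.84), a difference of -1.43 (-1.68 to -1.18).

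Few genes differed by 2-fold between the labelled genotypes in B-like cells after TNF, and Plaur was one of them. Plaur was chosen for moving with TNF, and the comparison uses the same TNF libraries, so nothing is read from its place among these genes. Of 2991 counted genes, 5 (0.167%) were at least 2-fold lower in TRIF-KO than in wild-type and 1 (0.0334%) was at least 2-fold higher. The 5 were Plaur (0.454-fold, log2 -1.14, -1.27 to -1.02, but -0.96 with the class thinned to its smallest library), Socs3, an inhibitor of cytokine signalling (log2 -1.27), Pmepa1, an inhibitor of TGF-beta signalling (log2 -1.10), the arrestin family gene Arrdc3 (log2 -1.57) and the predicted gene Gm49980 (log2 -1.15), and the higher one was the immunoglobulin gene Igha on 91 TRIF-KO and 27 wild-type UMIs; these companions were named after their values were seen. After PBS, Plaur was at 1.22-fold in TRIF-KO over wild-type B-like cells (log2 0.29, 0.07 to 0.52), the other direction.

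The same order held in each B-like cluster. In cluster 0 Plaur was at 54.9 CPM in TRIF-KO TNF, 43.0 CPM in TRIF-KO PBS, 153 CPM in wild-type TNF and 40.9 CPM in wild-type PBS cells. In cluster 1 it was at 53.7, 44.5, 124 and 37.6 CPM and in cluster 2 at 56.1, 51.4, 95.1 and 39.0 CPM in the same order. TRIF-KO over wild-type after TNF was 0.358-fold in cluster 0, 0.433-fold in cluster 1 and 0.590-fold in cluster 2. The unnamed cluster 3, led by Cr2 and Fcrl5, had 84.8, 83.1, 175 and 65.5 CPM. T-like cells stayed under the 50 CPM needed to be counted, at 11.7 CPM in TRIF-KO TNF, 2.18 CPM in TRIF-KO PBS, 43.1 CPM in wild-type TNF and 4.1 CPM in wild-type PBS, yet both TNF libraries lay above both PBS libraries. Within T-like cluster 5 TNF over PBS was 7.04-fold in TRIF-KO (91 against 9 UMIs) and 28.0-fold in wild-type (166 against 3 UMIs, 95% interval of the log2 ratio 3.24 to 7.10). NK-like cells had 0 to 2.89 CPM of Plaur in every library.

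**Figure D4:**
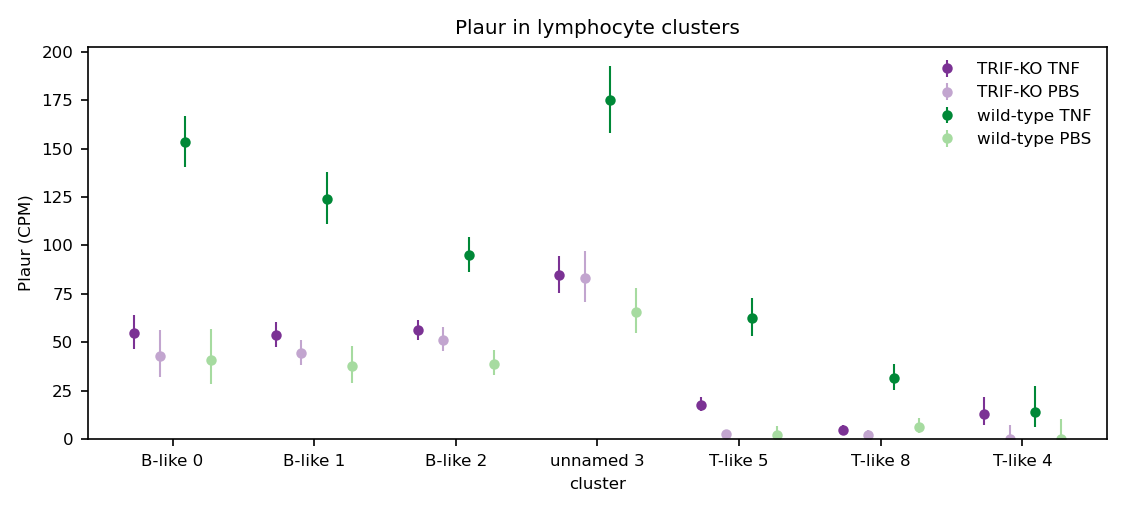
Plaur CPM in 7 lymphocyte clusters by library, with exact Poisson 95% intervals. Wild-type TNF is above the other 3 libraries in B-like clusters 0 to 2, in unnamed cluster 3 and in T-like clusters 5 and 8, and in T-like cluster 4 both TNF libraries are at about 13 to 14 CPM against 0 in both PBS libraries.

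In neutrophil-like cells Plaur had 167 CPM (153 to 182) in TRIF-KO TNF, 169 CPM (126 to 221) in TRIF-KO PBS, 298 CPM (250.4 to 352) in wild-type TNF and 152 CPM (126 to 181) in wild-type PBS. TNF over PBS was 0.99-fold in TRIF-KO (log2 -0.01, -0.42 to 0.42) and 1.97-fold in wild-type (log2 0.97, 0.62 to 1.34), just under 2-fold. With counts scaled by the median of ratios the wild-type log2 ratio was 1.36, with each cell weighted equally 1.16 and without doublet removal 1.64, all past 2-fold. Median-of-ratios scaling raised the TRIF-KO ratio by a like amount. The difference of the log2 responses, TRIF-KO minus wild-type, was -1.0 as reported and -0.97 with that scaling. The excess of wild-type TNF lay in granule-low cells, which had 120 CPM (98.3 to 145) in TRIF-KO TNF, 142 CPM (99.5 to 197) in TRIF-KO PBS, 399.6 CPM (298 to 525) in wild-type TNF and 135 CPM (109.5 to 164) in wild-type PBS. Granule-high cells had 186 CPM, 279 CPM, 259.6 CPM and 275 CPM in that order, the PBS values from 4 and 6 cells, and TRIF-KO over wild-type after TNF was 0.717-fold there (log2 -0.48, -0.82 to -0.13).
Shares of cells with a Plaur UMI were depth-bound. In B-like cells they were 24.6% in TRIF-KO TNF, 15.9% in TRIF-KO PBS, 32.5% in wild-type TNF and 19.8% in wild-type PBS, and 10.3%, 8.46%, 19.3% and 8.13% after thinning to 2000 UMIs, which left out 22, 53, 48 and 17 cells. NK-like cells had a UMI in 1 of 75, 0 of 135, 1 of 72 and 0 of 69 cells at medians of 6141, 3553, 4195 and 5572 UMIs.

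Plau, the urokinase that Plaur binds, gave 6 UMIs in TRIF-KO TNF, 9 in TRIF-KO PBS, 1 in wild-type TNF and 10 in wild-type PBS cells of all classes. No class reached the minimum of 100 UMIs, and no difference could be read at this depth. In monocyte-like cells it had 5 UMIs in TRIF-KO TNF, 3 in TRIF-KO PBS, 0 in wild-type TNF and 2 in wild-type PBS. The 0 among the 560548 UMIs of the wild-type TNF class allows a level of up to 5.35 CPM.

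F10, factor X of the clotting cascade, was higher after TNF in monocyte-like cells of both genotypes. It had 872 UMIs in 90 TRIF-KO TNF cells, 110 in 113 TRIF-KO PBS cells, 394 in 54 wild-type TNF cells and 210 in 80 wild-type PBS cells. The levels were 618 CPM (578 to 660.5), 103 CPM (84.3 to 124), 703 CPM (635 to 776) and 178 CPM (155 to 204), so both TNF libraries stood above both PBS libraries. After TNF it was 6.03-fold its PBS level in TRIF-KO (log2 2.59, 2.30 to 2.89) and 3.95-fold in wild-type (log2 1.98, 1.73 to 2.23). TRIF-KO over wild-type was 0.879-fold after TNF (log2 -0.19, -0.36 to -0.01) and 0.576-fold after PBS (log2 -0.80, -1.14 to -0.46). Of the 872 TRIF-KO TNF UMIs, 762 came from the 87 cells in cluster 24. Within that cluster TRIF-KO over wild-type after TNF was 0.818-fold (log2 -0.29, -0.47 to -0.11). A UMI of F10 was found in 86.7% of TRIF-KO TNF, 46.0% of TRIF-KO PBS, 87.0% of wild-type TNF and 66.2% of wild-type PBS cells, and in 56.7%, 18.9%, 57.7% and 15% after thinning, against at most 0.205% of B-like cells.

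F10 was also found in neutrophil-like cells after TNF, with 163 UMIs in TRIF-KO TNF, 0 in TRIF-KO PBS, 17 in wild-type TNF and 4 in wild-type PBS. TRIF-KO TNF had 52.4 CPM (44.7 to 61.1) in 24.5% of cells, and wild-type TNF had 36.4 CPM (21.2 to 58.3) in 17.1% of cells. After thinning the shares were 8.55% in TRIF-KO TNF, 0% in TRIF-KO PBS, 7.59% in wild-type TNF and 1.80% in wild-type PBS. TNF over PBS was at least 5.49-fold higher in TRIF-KO, with the 0 in TRIF-KO PBS set to 3 counts, and 7.51-fold in wild-type (log2 2.91, 1.29 to 4.94). Of the 10-gene monocyte list, Ccr2, Fn1, Vcan and Cx3cr1 were each at 2.42 CPM or less in the neutrophil-like cells of all libraries. Fn1, Ccr2 and Vcan are leading genes of cluster 17, where the PBS monocyte-like cells lie, and not of cluster 24. They are thus poor markers of the TNF monocyte-like cells. Treml4, which was high in TNF monocyte-like cells, is not among them. The whole list summed to 4276 CPM in TRIF-KO TNF, 3976 CPM in TRIF-KO PBS, 3821 CPM in wild-type TNF and 2633 CPM in wild-type PBS. Of its 10 genes, 9 were detected in TRIF-KO TNF, 4 in TRIF-KO PBS, 6 in wild-type TNF and 7 in wild-type PBS. Most of the sum was Lyz2, which neutrophils express as well. Erythroid markers summed to 10829, 1241, 2047 and 2952 CPM in the same order, and erythroid-like cells had 0.300 CPM of F10 or less. The part of monocyte or erythroid RNA in the F10 values was not tested. Progenitor-like cells, outside the comparisons because wild-type PBS has only 44, held 141 F10 UMIs in 10 cells of TRIF-KO TNF, 0 in TRIF-KO PBS, 1 in wild-type TNF and 10 in wild-type PBS.

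F13a1, the catalytic A subunit of factor XIII, ran the other way. In monocyte-like cells it had 292 UMIs in TRIF-KO TNF, 968 in TRIF-KO PBS, 128 in wild-type TNF and 2311 in wild-type PBS, or 207 CPM (184 to 232), 903 CPM (847 to 961), 228 CPM (191 to 272) and 1961 CPM (1882 to 2042). Over the whole class both TNF libraries were low and near each other, and the PBS libraries were high and apart. With TNF it stood at 0.229-fold of PBS in TRIF-KO (log2 -2.12, -2.32 to -1.93) and 0.116-fold in wild-type (log2 -3.10, -3.37 to -2.84), a difference of 0.97 (0.66 to 1.29). TRIF-KO over wild-type was 0.906-fold after TNF (log2 -0.14, -0.45 to 0.17) and 0.460-fold after PBS (log2 -1.12, -1.23 to -1.01). Of the 292 TRIF-KO TNF UMIs, 210 came from the 87 cells in cluster 24. The others came from the 3 cells in cluster 17, the cluster of the PBS cells. Within cluster 24 TRIF-KO over wild-type after TNF was 0.694-fold (log2 -0.53, -0.85 to -0.20). The TRIF-KO ratio and the difference above include the 3 cells of cluster 17. Cells with 20 or more F13a1 UMIs numbered 5 of 90 in TRIF-KO TNF, 12 of 113 in TRIF-KO PBS, 2 of 54 in wild-type TNF and 48 of 80 in wild-type PBS. Progenitor-like cells held 241 F13a1 UMIs in 8 cells of TRIF-KO TNF, 0 in TRIF-KO PBS, 0 in wild-type TNF and 93 UMIs in 6 cells of wild-type PBS. Platelet-like cells, whose megakaryocyte lineage is known for this gene, had 8, 6, 2 and 2 UMIs. The class had 17, 14, 11 and 11 cells with 53674, 34971, 58442 and 59538 UMIs in all, too few to be compared.

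Markers of monocyte state moved alongside F10 and F13a1, and their part in these results was not tested. Ccr2, the receptor of classical monocytes, was at 188 CPM in TRIF-KO TNF, 1429 CPM in TRIF-KO PBS, 132 CPM in wild-type TNF and 1689 CPM in wild-type PBS monocyte-like cells. Ly6c2, the other classical marker, was at 434, 902, 580 and 1286 CPM. Treml4, a marker of non-classical monocytes, was at 723, 131, 640 and 75.5 CPM in that order. All 10 monocyte markers were detected in each library and summed to 13436, 29442, 13597 and 26311 CPM. Erythroid markers set TRIF-KO TNF apart, with 8144 CPM there, 679.7 CPM in TRIF-KO PBS, 1056 CPM in wild-type TNF and 1125 CPM in wild-type PBS. The 10 macrophage markers summed to 1966 CPM in TRIF-KO TNF, 296 CPM in TRIF-KO PBS, 2690 CPM in wild-type TNF and 129.8 CPM in wild-type PBS, with 10, 10, 10 and 9 of them detected; haem oxygenase Hmox1 gave 1544, 99.8, 2002 and 89.9 CPM of this, and the macrophage-defining C1qa 36.1, 36.4, 69.6 and 0 CPM. Macrophage-like cells themselves had 3 F10 UMIs and no F13a1 UMI over the 4 libraries. This F10 count depended on how cells were named. With each cell classed by its own marker UMIs, macrophage cells had 53 F10 UMIs (90.1 CPM) in TRIF-KO TNF and 6 (24.7 CPM) in wild-type TNF. They had 0 in TRIF-KO PBS and 0 in wild-type PBS.

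Fgl2 was high in neutrophil-like cells after PBS and low after TNF, in both genotypes. It had 168 UMIs in TRIF-KO TNF, 452 in TRIF-KO PBS, 59 in wild-type TNF and 1291 in wild-type PBS, which is 54.0 CPM (46.2 to 62.8), 1438 CPM (1308 to 1577), 126 CPM (96.2 to 163) and 1565 CPM (1481 to 1653). The PBS libraries were close to each other and far above the TNF libraries. TNF over PBS was 0.0376-fold in TRIF-KO (log2 -4.73, -5.00 to -4.48), the 2nd lowest of 2965 genes, and 0.0808-fold in wild-type (log2 -3.63, -4.03 to -3.25), the 30th lowest of 2984. TRIF-KO over wild-type was 0.427-fold after TNF (log2 -1.23, -1.66 to -0.77), which became -0.91 without the top cell of each library and -0.74 at a mitochondrial limit of 5%, and 0.919-fold after PBS (log2 -0.12, -0.28 to 0.03). A UMI of Fgl2 was found in 23.1% of TRIF-KO TNF, 91.3% of TRIF-KO PBS, 18.3% of wild-type TNF and 92.8% of wild-type PBS cells, or 12%, 87.2%, 13.9% and 82.6% after thinning, against at most 0.228% of B-like cells. The shallowest class, TRIF-KO PBS, was thus among the highest.

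Fgl2 sat in granule-low cells. Below 1000 CPM of granule RNA it had 141 CPM (117 to 168) in TRIF-KO TNF, 1783 CPM (1622 to 1955) in TRIF-KO PBS, 439 CPM (331 to 569.8) in wild-type TNF and 1774 CPM (1679 to 1874) in wild-type PBS. Above it the level was 18.6 CPM, 0 CPM, 8.85 CPM and 20.4 CPM in the same order, with 0 UMIs in the 4 TRIF-KO PBS cells allowing up to 60.6 CPM at the upper 95% bound. Within granule-low cells TNF over PBS was 0.0790-fold in TRIF-KO (log2 -3.66, -3.96 to -3.37) and 0.247-fold in wild-type (log2 -2.02, -2.43 to -1.63), and TRIF-KO over wild-type after TNF was 0.321-fold (log2 -1.64, -2.10 to -1.16). The part of cell state in these ratios was not tested. Cells with both Thbs1 and Fgl2 after thinning were 3.13% of TRIF-KO TNF cells, against a product of the separate shares of 5.28%, and 7.59% of wild-type TNF cells, against 10.8%. The granule-low cells had less Csf3r, the G-CSF receptor, after TNF, at 0.434-fold in TRIF-KO and 0.437-fold in wild-type.

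In monocyte-like cells Fgl2 was at 11.3 CPM in TRIF-KO TNF, 81.1 CPM in TRIF-KO PBS, 7.14 CPM in wild-type TNF and 159 CPM in wild-type PBS. That was 0.140-fold in TRIF-KO (log2 -2.84, -3.71 to -2.06) and 0.0450-fold in wild-type (log2 -4.47, -6.37 to -3.09), the last on 4 TNF UMIs. NK-like cells had 117 CPM of Fgl2 (89.7 to 149) in TRIF-KO TNF, 167 CPM (133 to 206) in TRIF-KO PBS, 89.5 CPM (60.8 to 127) in wild-type TNF and 177 CPM (139.7 to 221) in wild-type PBS. Conventional dendritic-like cells had 80.2, 92.0, 56.9 and 102 CPM in the same order. The 10 neutrophil markers summed to 203 CPM in TRIF-KO TNF, 23.6 CPM in TRIF-KO PBS, 1004 CPM in wild-type TNF and 6833 CPM in wild-type PBS cells of that class, with 9, 6, 9 and 10 detected, at median depths of 3258.5, 2907, 2835.5 and 13079 UMIs, and their part was not tested. In these 2 classes TNF over PBS lay between 0.506-fold and 0.872-fold and passed 2-fold in neither genotype. In unnamed cluster 3 Fgl2 was sparse, with 18 UMIs in TRIF-KO TNF, 4 in TRIF-KO PBS, 27 in wild-type TNF and 6 in wild-type PBS, and TNF over PBS came to 2.32-fold in TRIF-KO (log2 1.21, -0.39 to 3.24) and 3.75-fold in wild-type (log2 1.91, 0.60 to 3.47).

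Counted over the 8 compared classes, 12 of the 48 pairs of member and class were abundant enough to be set against each other in both genotypes after TNF. In TRIF-KO over wild-type after TNF, 0 were at least 2-fold higher, beside a background of 2.9% of all gene and class pairs, and 5 were at least 2-fold lower, beside 2.11%. These were Thbs1 and Fgl2 in neutrophil-like, Thbs1 and Plaur in monocyte-like and Plaur in B-like cells. All 5 are of genes chosen for moving with TNF, the comparison uses the same TNF libraries, and a gene can count in more than 1 class. Nothing is therefore read from this count against the background. After PBS, 0 of 11 pairs were higher (background 1.9%) and 2 were lower (background 2.53%), Thbs1 in neutrophil-like and F13a1 in monocyte-like cells; without the top cell of each library 4 were lower. Thbs1, Plaur and Fgl2 were chosen for moving with TNF, so the TNF counts are a description: 3 higher (background 5.73%) and 4 lower (8.55%) of 12 in TRIF-KO, and 6 higher (6.9%) and 3 lower (13.4%) of 12 in wild-type. The difference of the log2 responses, TRIF-KO minus wild-type, was at least 1 lower in 5 of 11 pairs (background 4.01%) and at least 1 higher in 1 (6.33%), Fgl2 in monocyte-like cells at 1.51 (-0.04 to 3.05). This difference is built from the TNF ratios for which Thbs1, Plaur and Fgl2 were chosen, and all 5 lower pairs are of these genes, so nothing is read from it against the background. The lower ones were Plaur in neutrophil-like (-1.0), monocyte-like and B-like cells, Fgl2 in neutrophil-like (-1.11) and Thbs1 in monocyte-like cells. Without the top cell of each library the neutrophil-like values were -0.89 for Plaur and -0.79 for Fgl2, which left 3. All comparisons here share libraries with one another.

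**Figure D5:**
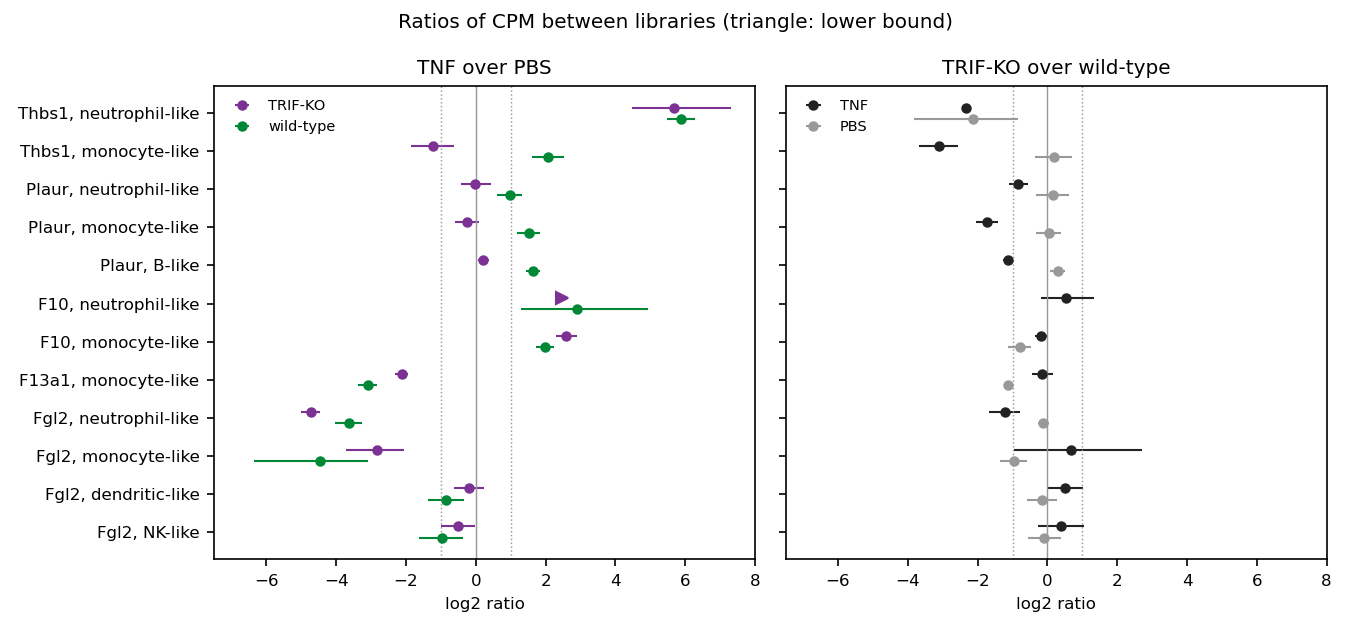
log2 ratios of CPM for the 12 pairs of member gene and cell class abundant enough to be compared, with exact conditional 95% intervals; left, TNF over PBS in TRIF-KO and wild-type; right, TRIF-KO over wild-type after TNF and after PBS. Dotted lines mark 2-fold and the triangle a lower bound; Plaur lies near 0 for TRIF-KO on the left and above 0 for wild-type.

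The pathway lists hold 50 further genes of clotting, anticoagulation, fibrinolysis, thrombin receptors, thrombospondin receptors and the vitamin K cycle, all in the files, and most were too rare in spleen cells to be counted. Monocyte-like cells had the most, 11 of 50, of which 1 was at least 2-fold higher and 3 lower after TNF in TRIF-KO (background 11.2% and 13.5%), and 3 higher and 3 lower in wild-type (11.5% and 20.7%). Serpinb2, the plasminogen activator inhibitor type 2 that blocks urokinase, was at 56.0 CPM in TRIF-KO TNF against 182 CPM in wild-type TNF (log2 -1.70, -2.14 to -1.26), and at 91.4 CPM in TRIF-KO PBS against 50.1 CPM in wild-type PBS. In wild-type monocyte-like cells Plgrkt, a plasminogen receptor, was at 153 CPM after TNF and 30.5 CPM after PBS, and Cd36, a thrombospondin receptor, at 73.1 and 30.5 CPM. Annexin A2 (Anxa2), which assembles plasminogen and its activator on the cell surface, was 2.01-fold higher after TNF in TRIF-KO and 1.39-fold in wild-type. Thrombomodulin (Thbd), the thrombin receptor that starts the anticoagulant protein C pathway, had 10 UMIs in TRIF-KO TNF, 64 in TRIF-KO PBS, 1 in wild-type TNF and 47 in wild-type PBS. Factor V (F5), the cofactor of active factor X, had 6, 57, 2 and 41 UMIs. Lrp1, a scavenger receptor that clears protease and inhibitor complexes, was at 159, 421, 67.8 and 331 CPM. F5, Lrp1 and Thbd were therefore all lower after TNF, at 0.0800-fold, 0.377-fold and 0.119-fold in TRIF-KO and at 0.103-fold, 0.205-fold and 0.0447-fold in wild-type.

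Conventional dendritic-like cells had 6 of the 50 genes counted, of which 2 were at least 2-fold higher and 3 lower after TNF in TRIF-KO (background 4.77% and 8.92%), and 2 higher and 2 lower in wild-type (8.35% and 17.2%). Anxa2 was at 481 CPM in TRIF-KO TNF, 170.5 CPM in TRIF-KO PBS, 498 CPM in wild-type TNF and 173 CPM in wild-type PBS. Plgrkt was 2.34-fold higher after TNF in TRIF-KO and 4.02-fold higher in wild-type. Cd36 and Itgam, the CD11b integrin chain, were lower, at 0.279-fold and 0.260-fold in TRIF-KO and 0.193-fold and 0.141-fold in wild-type. The neutrophil markers given above differ between the libraries in this class, and their part in the Itgam and Cd36 values was not tested; of the 198 TRIF-KO TNF, 178 TRIF-KO PBS, 188 wild-type TNF and 66 wild-type PBS cells of the class, 45, 60, 52 and 41 also passed the per-cell marker gate. In neutrophil-like cells 5 of the 50 were counted and 0 passed 2-fold after TNF in either genotype, against backgrounds of 8.57% higher and 24.2% lower in TRIF-KO and 10.7% higher and 27% lower in wild-type. S100a10, the partner of annexin A2, was lower after TNF in T-like cells at 0.471-fold in TRIF-KO and 0.401-fold in wild-type, and Itgam in NK-like cells at 0.267-fold and 0.246-fold.

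The genes whose levels went most like each member are given by Pearson's r of log2(CPM + 20) over 32 points, 8 classes in 4 libraries that share library, depth and cells, among 5807 genes. They were Schip1 (0.94), Upp1 (0.91) and Snai1 (0.90) for Thbs1, and Ccdc180 (0.87), Ceacam1 (0.85) and Arid3a (0.85) for Plaur. For F10 they were Adora2b (0.96), Met (0.96) and Dnah12 (0.95), for F13a1 Plcb1 (0.99), Fn1 (0.99) and Arhgef37 (0.97), and for Fgl2 Prr5l (0.94), 4833407H14Rik (0.88) and Tnfsf14 (0.86). For Plau they were Skint3 (0.84), Arl11 (0.81) and Alcam (0.79), which rest on few UMIs and are no finding. Among the members the highest r were 0.80 between F13a1 and F10 and 0.73 between Plaur and Thbs1, and the lowest was 0.01 between Fgl2 and F10.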

How the data were processed

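Spleen cells of 4 groups, 1 library each, were profiled by droplet single-cell RNA sequencing. The deposited matrices hold raw UMI counts per gene and barcode, not normalised. Per the file headers they were written by Cell Ranger 6.0.1, whereas the submitters' processing notes name Cell Ranger 3.0, Seurat 4.1.1 and build mm10. No source used here gives the annotation release. The smallest barcode held 500 to 503 UMIs in each library.

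Cells needed 200 genes or more and no more than 10% mitochondrial UMIs. The top Scrublet scores of each library, 0.8% per 1000 barcodes, were removed as doublets (399 in TRIF-KO TNF, 256 in TRIF-KO PBS, 221 in wild-type TNF and 50 in wild-type PBS). Cells were clustered together with scanpy 1.11.5 on 2000 variable genes, 30 principal components, 15 neighbours and Leiden resolution 1, leaving out the members and other response genes. Clusters were named by marker lists, as "-like". UMIs were summed per class and library. A gene was counted in a class with 100 UMIs over the libraries and 50 CPM in 1 of them, and not where it was under 5% of its highest class, a level free RNA can give. A call is a ratio of at least 2, and a ratio against 0 UMIs is a bound against 3 counts. The difference between responses adds 0.5 to each count, with a normal approximation for its interval.

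The members and lists were chosen with earlier results of these data known. Genes named were the 6 members, pathway genes at least 2-fold different, the 3 most alike genes per member, Ticam1 and moving markers, unless said otherwise. Calls and intervals were tested on simulated Poisson counts. Those counts lack the clumping of UMIs in single cells, so the test cannot show how the intervals hold under it. Of 32285 gene IDs, 32158 matched GENCODE M21. Alternatives covered scaling, cell weights, mitochondrial limits, doublets, marker gates, thinning and minimums.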

Additional observations from a re-analysis of the deposited data

Results flagged for a closer look

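Thbs1 in monocyte-like cells had log2 ratios of TNF over PBS of opposite sign in the 2 genotypes, -1.23 in TRIF-KO and 2.07 in wild-type. The TRIF-KO value hung on single cells. In TRIF-KO PBS 1 cell, with 38 UMIs of the platelet gene Pf4, gave 53 of the 64 Thbs1 UMIs. In TRIF-KO TNF 1 cell gave 24 of 36. The difference was not tested, since each group is 1 library. Without the cell with most Thbs1 UMIs in each library the TRIF-KO value was -0.32, on 12 TNF and 11 PBS UMIs, too few to show a fall. It was -0.42 with each cell weighted equally and -0.78 with each class thinned to the UMIs of its smallest library.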

How the results depend on the processing

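Of 626 single values recomputed under the alternatives, 585 moved by no more than their counting interval, 41 moved beyond it and 0 reversed a called direction, and 13 of 308 values past 2-fold fell short of it. The counts that follow are of pairs of gene and class, and background shares were not recomputed. Weighting each cell equally gave 5 lower member pairs in wild-type TNF over PBS (3 as reported), 2 higher in TRIF-KO over wild-type after TNF (0) and 4 lower after PBS (2). Leaving out the top cell of each library gave 1, 4 and, for the difference of responses, 2 higher (1) and 3 lower (5). Without doublet removal 1 pair was higher in TRIF-KO over wild-type after TNF, and with marker gates or a minimum of 20 UMIs 4 were lower after PBS. The difference had 2 higher under equal weights, no doublet removal, gates or 20 UMIs. Among pairs of pathway gene and class, 20 UMIs gave 11 higher and 17 lower in wild-type TNF over PBS (5 and 8), 6 and 18 in TRIF-KO (3 and 8), 5 lower in TRIF-KO over wild-type after TNF (1), and 4 higher and 5 lower after PBS (2 and 1). Gates gave 3 higher in wild-type and 4 lower in TRIF-KO TNF over PBS. After PBS, 1 was higher under equal weights, a 5% mitochondrial limit or gates. There 0 were lower under median-of-ratios scaling, the 5% limit, no doublet removal or thinning, and 2 under equal weights, the 20% limit or gates. Plaur in B-like cells, TRIF-KO over wild-type after TNF, was -0.96 with UMIs thinned. The Plaur difference in neutrophil-like cells, -1.0, ranged down to -0.74, and that of Fgl2, -1.11, to -0.61 at the 5% limit. The cause was not tested. The free-RNA and granule alternatives were chosen after seeing the data. No paired analysis was possible because each group is 1 library. Depth limits Plau and all Thbs1 values in TRIF-KO PBS neutrophil-like cells.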
